A study of Mus musculus with 3 samples.

Results

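Prostaglandins and leukotrienes are lipid signals made on demand inside cells, and 10 genes of their synthesis and response were followed here across the cells of mouse glomeruli. They are *Ptgs1*, *Ptgs2*, *Ptgis*, *Ptges*, *Ptgds*, *Tbxas1* and *Ptger4* of the prostaglandin branch and *Alox5*, *Alox5ap* and *Ltc4s* of the leukotriene branch, found by their symbols among the 32285 genes of the files. They were chosen by their UMI levels in these same cells, above all by the level of *Ltc4s* in endothelial cells of the third library, so what follows is a description and no test. The glomeruli came from 3 sets of female mice, with 1 library of single cells for each. The first was a blank control whose strain is not named for this experiment. The second was from MRL/lpr mice, a lupus-prone strain that carries the lpr mutation of *Fas* and develops nephritis. The third was from MRL/lpr mice given 800000 hUC-MSCs, mesenchymal stem cells grown from human umbilical cord, into a vein, and these are called treated below. The MRL/lpr mice were bought at 6 to 8 weeks, screened for disease at 16 weeks and sampled at day 21. How many mice were pooled in a library is not given in the sources used here, and whether mice differed within a group cannot be seen with 1 library per group.

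Both branches start from arachidonic acid, which phospholipase A2 releases from membranes. The cyclooxygenases COX-1 (*Ptgs1*) and COX-2 (*Ptgs2*) turn it into prostaglandin H2, and terminal synthases make prostacyclin, prostaglandin E2, prostaglandin D2 or thromboxane from that. In the other branch 5-lipoxygenase (*Alox5*), presented with its substrate by the protein FLAP (*Alox5ap*), makes leukotriene A4, and leukotriene C4 synthase (*Ltc4s*) joins this to glutathione. In the kidney prostaglandins are known for setting the tone of glomerular vessels and the release of renin, and leukotriene C4 can be formed by a cell that takes up leukotriene A4 from a neighbouring leukocyte.

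The stretches of DNA before the starts of *Ltc4s* and *Ptgs2* are shown because these genes carried the clearest patterns of each branch. Of the 10 genes 8 had a promoter of 300 bases, 250 before the start and 50 after it, in RefSeq on GRCm38.p6. *Ltc4s* codes for protein and spans 50236461 to 50238616 on chromosome 11, minus strand (GENCODE M21, GRCm38), where it overlaps *Gm26542* on the other strand. *Ptgs2* lies on the plus strand of chromosome 1, from 150100031 to 150108227. The first sequence below covers the 166 bases at chr11:50238617-50238782, read on the minus strand, with an AGGAAG element in capitals. Positions are counted from the RefSeq start, which for *Ltc4s* lies further into the gene than the end of the GENCODE span, where the printed stretch stops. On that count the element is at -117, though fewer bases follow it here. The second covers the 250 bases at chr1:150099781-150100030 on the plus strand. Its capitals mark a GC box (GGGCGG) at -170 and an AGGAAG read on the opposite strand at -117. The third covers the 30 bases at chr1:150100035-150100064, just after the start of *Ptgs2*. Its capitals hold the core of a cyclic AMP response element, TGACG on the opposite strand at +14, and an E-box, CACGTG at +17, which overlap.
*Ltc4s*, before the start: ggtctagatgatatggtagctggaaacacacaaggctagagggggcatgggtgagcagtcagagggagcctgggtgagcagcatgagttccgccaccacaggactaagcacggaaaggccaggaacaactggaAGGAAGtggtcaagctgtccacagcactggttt
*Ptgs2*, before the start: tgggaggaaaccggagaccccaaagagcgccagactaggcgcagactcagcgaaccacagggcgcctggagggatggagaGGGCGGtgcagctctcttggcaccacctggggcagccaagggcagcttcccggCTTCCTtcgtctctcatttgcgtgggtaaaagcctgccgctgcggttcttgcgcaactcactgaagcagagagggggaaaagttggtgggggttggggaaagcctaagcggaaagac
*Ptgs2*, after the start: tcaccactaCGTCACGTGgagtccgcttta
AGGAAG, the core bound by ETS factors, was found on either strand in 4 of the 8 promoters and in 35.4% of 32851 mouse promoters of the same length. GGGCGG was found in 4 of the 8 and in 35.7% of all promoters. CACGTG was found in 7.15% and TGACG in 20.8% of all promoters, and among the 8 only in *Ptgs2*. The other elements looked for were TATAAA (13.6% of all promoters), TGANTCA (7.81%), CCAAT (37.4%) and AGATAA (11.2%), and these were found in 1, 2, 1 and 0 of the 8 promoters. A match of letters is a description of the window and not a site in use.

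A barcode was kept with at least 1000 unique molecular identifiers (UMIs, each standing for 1 captured RNA molecule) and at most 10% mitochondrial UMIs, and predicted doublets were removed. This left 10047 control, 12516 MRL/lpr and 14385 treated cells with a median of 4910, 3633.5 and 2726 UMIs, against about 8000 captured cells that the methods state. Cells were clustered without the 10 genes and were named from markers. Endothelial-like cells numbered 5717, 4142 and 4865, mesangial- and mural-like cells 1061, 1863 and 2493, mononuclear phagocyte-like cells 117, 2155 and 3729, and tubule-like cells 179, 1841 and 437. Most clusters leaned to 1 library. Control endothelial-like cells lay mainly in clusters 5, 6 and 10, untreated ones in clusters 7 and 18 and treated ones in cluster 9, so levels within a cluster are given where cells allow. Of the mesangial- and mural-like cells, control cells lay mainly in clusters 0 and 2, untreated ones in cluster 0 and treated ones in clusters 1 and 14. The number of barcodes found in both of a pair of libraries was 24, 31 or 41, at most 0.328% of the smaller. Levels are given as CPM, the UMIs of a gene in all cells of a class, divided by all UMIs of these cells and scaled to 1000000. Its level in free RNA was read from empty droplets of 1 to 100 UMIs. Intervals are exact at 95% and cover counting error only. Because UMIs are counted at the ends of transcripts, levels are compared between cells and libraries and not between genes.

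The 10 genes together held 12873 UMIs in control, 24584 in MRL/lpr and 24640 in treated cells, spread over several cell classes. *Ltc4s* and *Ptgis* were highest in endothelial-like cells and *Ptges* in tubule-like cells of all 3 libraries, among classes of at least 50 cells. For the other 7 genes the highest such class differed between libraries. The 25 control neutrophil-like cells were too few for this limit, with 1245 CPM of *Alox5ap* and 38.9 CPM (2 UMIs) of *Alox5*. Control phagocyte-like cells had 929 and 3.71 CPM of these genes. *Alox5ap* and *Alox5* were highest in phagocyte- or neutrophil-like cells, *Ptger4* in mesangial- and mural-like or phagocyte-like cells, and *Ptgds* in podocyte- or tubule-like cells.

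**Figure D1:**
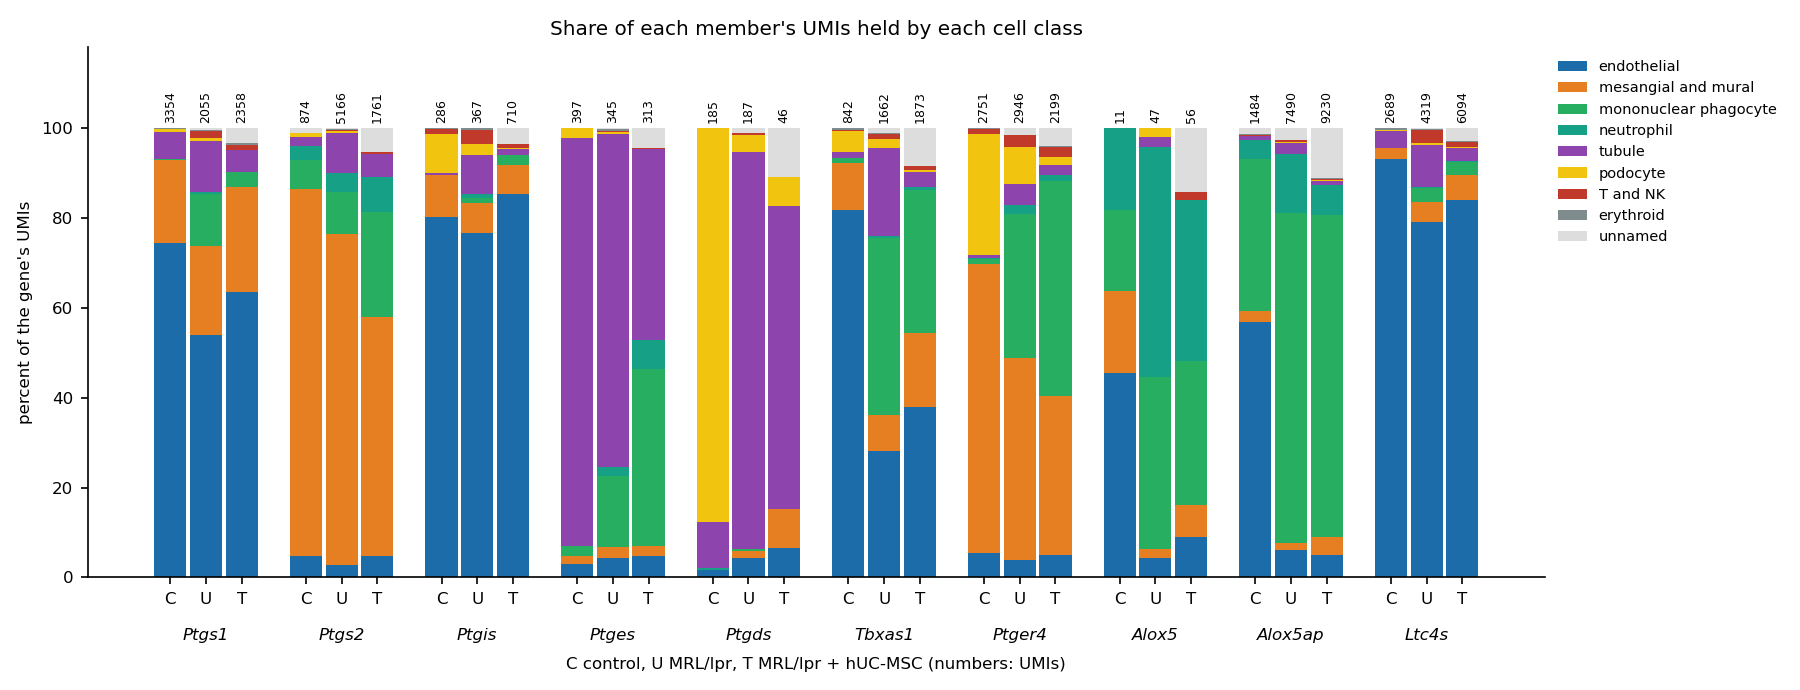
Share of each gene's UMIs (percent, vertical axis) held by each cell class in the control (C), MRL/lpr (U) and treated (T) library, with the number of UMIs above each bar. Endothelial-like cells held 93.0%, 79.1% and 84.0% of *Ltc4s* UMIs, and tubule-like cells 90.7%, 73.9% and 42.5% of *Ptges* UMIs.

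**Figure D2:**
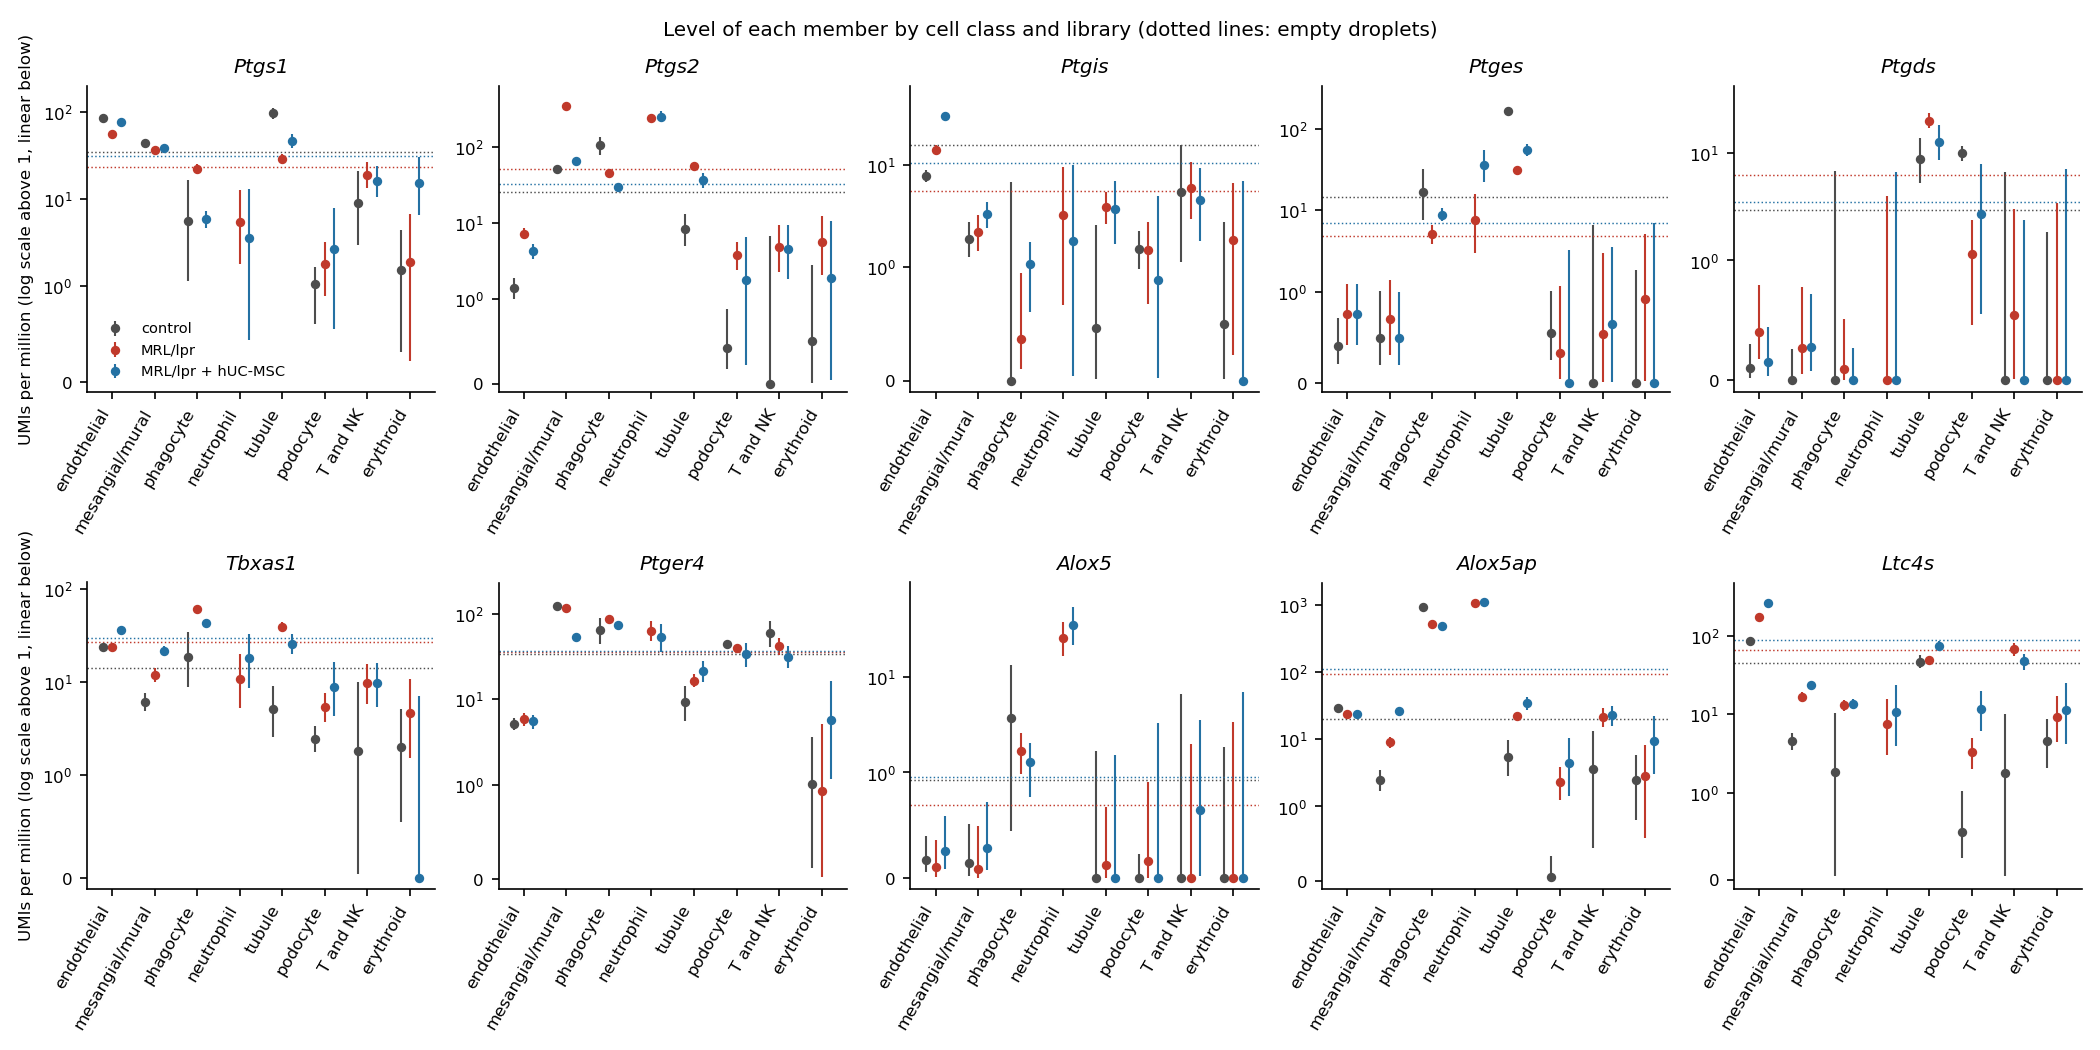
Level of each gene (CPM, log scale above 1 and linear below) in each cell class of at least 50 cells, with 95% Poisson intervals and a dotted line for the level in empty droplets of the same colour. *Ltc4s* stood at 85.8, 172 and 258 CPM in endothelial-like cells and *Ptgs2* at 50.5, 337 and 65.6 CPM in mesangial- and mural-like cells of control, MRL/lpr and treated mice.

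*Ltc4s* encodes the enzyme that commits leukotriene A4 to the cysteinyl leukotrienes. Endothelial-like cells held 2502 *Ltc4s* UMIs in the control library, 3416 in MRL/lpr and 5119 in treated mice. Their levels were 85.8 CPM (82.4 to 89.2), 172 CPM (166 to 178) and 258 CPM (251 to 265). The order of the libraries was control, MRL/lpr, treated, and no intervals overlapped. MRL/lpr cells were 2.00-fold above control (1.90 to 2.11), and treated cells were 1.5-fold above untreated ones (1.44 to 1.57). On the log2 scale these ratios were 1.00 (0.93 to 1.08) and 0.59 (0.52 to 0.65). The median gene of endothelial-like cells itself lay 0.13 higher on the log2 scale in the treated library, and relative to it the ratio of *Ltc4s* was 0.46. The dissociation stress list differed between the same cells, with sums of 39808 CPM in control, 31903 in MRL/lpr and 14426 in treated mice. Of its 10 genes 5 were past 2-fold lower in treated than in untreated cells, against 4.3% of all genes, *Atf3* (-2.04), *Fosb*, *Egr1*, *Junb* and *Jun* (-1.26), and the median of the 10 was -1.13 on the log2 scale. The part of tissue handling in the levels of *Ltc4s* and of *Ptgis*, described below, was not tested.

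*Ltc4s* was not a marker of the treated library alone, since it was also an endothelial gene in control and untreated MRL/lpr mice. The order held within the endothelial-like clusters. In cluster 7 *Ltc4s* had 111 CPM in control, 186 in MRL/lpr and 265 in treated cells. In cluster 9 it had 131, 185 and 258 CPM, and in cluster 18 it had 72.5, 159.5 and 234 CPM. The log2 ratio of treated over untreated cells was 0.58 (0.11 to 1.07) in cluster 5, 0.51 (0.41 to 0.62) in cluster 7, 0.48 (0.27 to 0.69) in cluster 9 and 0.55 (0.33 to 0.77) in cluster 18. Treated cells numbered 3836 in cluster 9 and 180 in cluster 18. These 4 ratios all came from the same treated and untreated libraries. The clusters are therefore not repeats of the comparison, and their likeness adds no support to it. MRL/lpr over control cells ranged from 0.50 (0.10 to 0.92) in cluster 9 to 1.14 (0.72 to 1.58) in cluster 18.

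**Figure D3:**
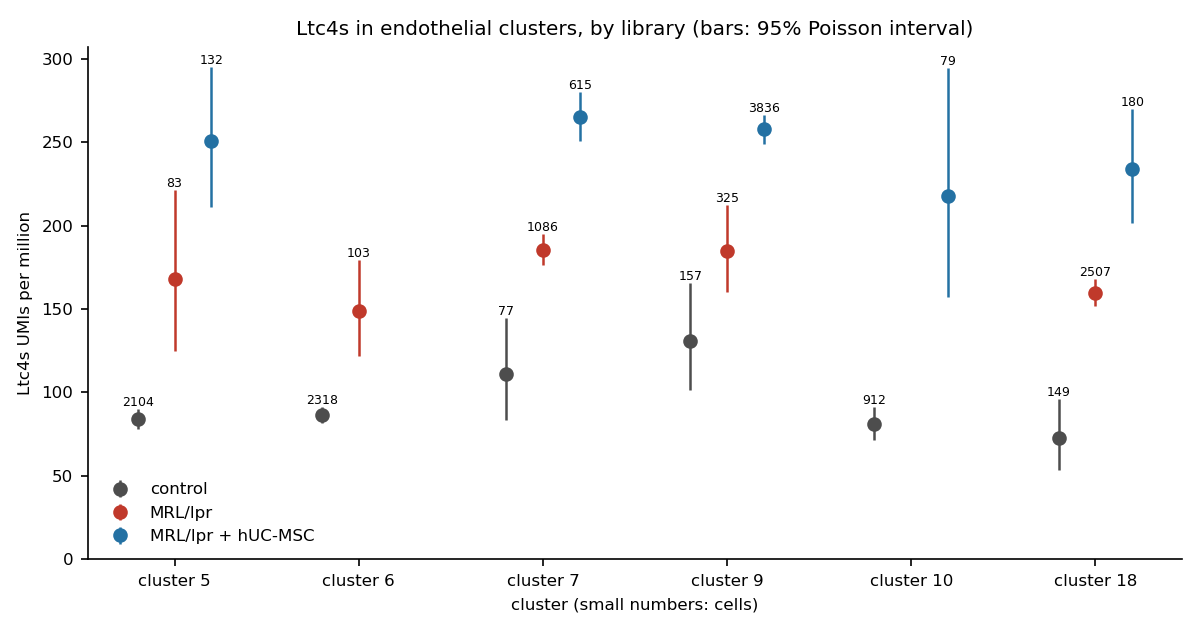
*Ltc4s* level (CPM, from 0) in each endothelial-like cluster, by library, with 95% Poisson intervals and the number of cells above each point (cells of a library under 50 in a cluster are not shown). In clusters 5, 7, 9 and 18 the treated point lay above the MRL/lpr point, which lay above the control point.

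More endothelial-like cells had at least 1 *Ltc4s* UMI in the treated library, at 41.2% against 36.7% in MRL/lpr and 26.0% in control mice. The median depth of these cells was 3044, 3762.5 and 4262 UMIs, in the opposite order. After every cell was thinned to 1000 UMIs the shares were 16.9%, 12.8% and 7.42%. In podocyte-like cells, which should lack the gene, the unthinned shares were 6.80%, 2.44% and 0.381% at median depths of 6874, 7204 and 6667.5 UMIs, and the thinned shares were 0.680%, 0.487% and 0. Cells with 5 or more *Ltc4s* UMIs made up 5.86% of treated, 3.94% of MRL/lpr and 1.12% of control endothelial-like cells, with at most 25, 16 and 16 UMIs in a cell.

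In endothelial-like cells with a UMI of *Ehd3*, a marker of glomerular capillaries, *Ltc4s* had 88.2 CPM in control, 178 in MRL/lpr and 269 in treated mice. In cells with arterial genes it had 29.5, 134 and 194 CPM, over 296, 316 and 445 cells. The 40, 58 and 196 cells with venous or peritubular genes had 104, 133 and 225 CPM. The levels of the 3 subsets had the same order of libraries, and in *Ehd3* and arterial cells no intervals overlapped. In venous or peritubular cells the levels rested on 14 control, 23 MRL/lpr and 108 treated UMIs. Their intervals were 56.7 to 174, 84.6 to 200 and 185 to 272 CPM. The MRL/lpr interval overlapped both others, so only treated over control cells differed beyond counting error there. The control level was lowest in arterial cells, where it was below the 45.2 CPM of control empty droplets.

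Empty droplets had 45.2 CPM of *Ltc4s* in control, 65.6 in MRL/lpr and 89.0 in treated libraries, and most classes outside the endothelium lay below this. Mesangial- and mural-like cells had 4.52, 16.7 and 23.3 CPM, and phagocyte-like cells had 1.85 (1 UMI), 13 and 13.4 CPM. Tubule-like cells had 47.0, 48.4 and 73.4 CPM as a class. The collecting duct-like cluster 21 was above the droplets, with 66.0 CPM (93 UMIs) in control and 133 CPM (141 UMIs) in MRL/lpr mice, a log2 ratio of 1.00 (0.62 to 1.40) against 0.04 for the class. The thick limb and distal cluster 16 had 65.4 CPM in untreated and 96.7 CPM in treated mice, and the proximal cluster 17 had 0, 9.48 and 32.5 CPM. T and NK-like cells had 1.81, 67.3 and 47.1 CPM as a class, but 3.09, 9.09 and 18.7 CPM in cluster 23, which held most of them. Most of the class's *Ltc4s* UMIs lay in the 71 cells of cluster 8, whose median depth was 9518 UMIs. Mast cells and basophils are the classical makers of leukotriene C4, and 3, 3 and 5 of their 8 markers had a UMI in control, MRL/lpr and treated endothelial-like cells. The sum of these markers was 75.8, 78.2 and 112 CPM, of which *Hdc*, for histidine decarboxylase, gave 75.7, 77.9 and 112 CPM. *Fcer1a* and *Prss34* were at 0 in all 3 libraries, and the other 5 markers had at most 4 UMIs. The platelet markers summed to 30.4, 29.5 and 27.9 CPM. The part of such cells in the level of *Ltc4s* was not tested beyond these values.

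Treated endothelial-like cells with and without an *Ltc4s* UMI were set side by side, after thinning each cell to 1000 UMIs, since cells with a UMI were deeper (median 4624 against 2395 UMIs). The 10 genes with the highest ratio in the treated library were *Apex1*, *Trp53cor1*, *Zmat3*, *Ccdc184*, *Cstf2t*, *Trp53inp1*, *Tars2*, *Snhg15*, *Phlda3* and *Ak1*, with log2 ratios from 1.73 down to 1.01 over 8466 genes ranked. They were picked as the highest of many, so their treated values are no result. In the other libraries, which the ranking did not use, *Phlda3* was also higher in cells with *Ltc4s*, at 1.04 (0.74 to 1.34) in MRL/lpr and 0.76 (0.32 to 1.19) in control mice. *Ccdc184* was higher at 1.05 (0.67 to 1.44) and 1.00 (0.33 to 1.65). *Snhg15* at 1.05 (0.59 to 1.51), *Zmat3* at 1.37 (0.33 to 2.46) and *Trp53inp1* at 0.74 (0.02 to 1.47) were higher in MRL/lpr mice, and their intervals in control mice included 0. The intervals of the other 5 genes included 0 in both libraries. *Phlda3*, *Zmat3*, *Trp53inp1* and *Trp53cor1* are known targets of p53. Of these only *Phlda3* had intervals above 0 in both other libraries, and a part of p53 was not tested. In the treated library the intervals of the glomerular capillary genes *Ehd3* (-0.07), *Kdr*, *Plat* and *Gata5* included 0. Other capillary genes lay below 0 in cells with *Ltc4s*. These were *Smad6* at -0.14 (-0.26 to -0.01), *Mapt* at -0.33 (-0.55 to -0.11) and *Lpl* at -0.89 (-1.38 to -0.41). Of the arterial genes *Sox17* (-0.25), *Efnb2* (-0.26) and *Gja5* (-1.21) lay below 0. The intervals of *Gja4*, *Fbln5*, *Hey1* and *Bmx* included 0.

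The genes most like *Ltc4s* over the 23 sums of a class in a library were *Fgfr3*, *Plxna4*, *Itga6*, *Sele* and *Tmem252*, with Pearson's r from 0.92 to 0.90 among 17347 genes. This is a description over sums that share libraries and depth. *Sele*, the E-selectin that catches leukocytes on inflamed endothelium, had 146 CPM in control, 387 in MRL/lpr and 549 in treated endothelial-like cells. *Fgfr3* had 26.9, 61.0 and 80.3 CPM in the same order, *Plxna4* 77.5, 111 and 155 CPM and *Itga6* 105, 155 and 177 CPM. *Tmem252* had 29.5, 149 and 96.7 CPM, lower in treated than in untreated cells, unlike *Ltc4s*. Among the 10 genes the nearest was *Ptgs1* with 0.75, followed by *Ptgis* with 0.66.

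*Alox5*, the lipoxygenase itself, was nearly unseen. It gave 11 UMIs in control, 47 in MRL/lpr and 56 in treated cells. Neutrophil-like cells had 26.0 CPM (24 UMIs) in MRL/lpr and 35.9 CPM (20 UMIs) in treated mice, and 2 UMIs in the 25 control cells. Phagocyte-like cells had 3.71 CPM (2 UMIs), 1.66 (18 UMIs) and 1.29 (18 UMIs), and their libraries could not be told apart at this depth. Of the endothelial-like cells 5, 2 and 5 had an *Alox5* UMI, too few to read how often it was seen with *Alox5ap* and *Ltc4s*.

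*Alox5ap*, the partner of 5-lipoxygenase, was a gene of myeloid cells. Neutrophil-like cells had 1245 CPM in control (25 cells), 1055 in MRL/lpr and 1101 in treated mice. Phagocyte-like cells had 929, 509.6 and 475 CPM, so that MRL/lpr cells were 1.82-fold below the 117 control cells (log2 ratio -0.87, -1.0 to -0.73) and treated cells were 1.07-fold below untreated ones. The clusters of this class went different ways between treated and untreated mice. In the monocyte-like clusters *Alox5ap* was lower in treated mice, with a log2 ratio of -0.26 (-0.34 to -0.18) in cluster 11 and -0.44 (-0.53 to -0.36) in cluster 12. In the macrophage-like cluster 13 it was higher, at 313 against 219 CPM (0.51, 0.39 to 0.64). The share of phagocyte-like cells with a UMI was 91.5%, 73.9% and 62.2%, or 59.0%, 36.1% and 32.4% after thinning, against 0.0423%, 1.71% and 2.72% unthinned in podocyte-like cells.

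Myeloid cells did not hold all of it. In the control library endothelial-like cells held 56.9% of *Alox5ap* UMIs, beside 117 phagocyte-like cells, and in MRL/lpr and treated mice they held 6.19% and 5.03%. Their level was 28.9, 23.3 and 23.4 CPM, against 19.7, 93.0 and 109 CPM in empty droplets. Both *Ltc4s* and *Alox5ap* were seen in 249, 214 and 217 endothelial-like cells. This was 4.36%, 5.17% and 4.46% of the class, and the product of the single shares was 3.26%, 3.62% and 3.60%. Deeper cells show more of every gene. With each cell thinned to 1000 UMIs, the log2 ratio of *Alox5ap* in cells with over cells without an *Ltc4s* UMI was 0.71 (0.22 to 1.18) in control, 0.29 (-0.33 to 0.89) in MRL/lpr and -0.72 (-1.33 to -0.15) in treated mice. The libraries thus had no common direction after thinning, and in treated mice it was opposite to that of the joint counts. Cells were split by *Ltc4s* at full depth, so those with a UMI were deeper before thinning. In the same treated cells the myeloid genes *Lyz2* and *C1qa* had -0.41 (-0.64 to -0.18) and -0.39 (-0.82 to 0.02). The part of free RNA in these ratios was not tested.

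In mesangial- and mural-like cells *Alox5ap* had 2.47 CPM in control, 9.03 in MRL/lpr and 26.2 in treated mice, all of them below the 19.7, 93.0 and 109 CPM of empty droplets. The class as a whole was 2.90-fold higher in treated than in untreated mice (2.33 to 3.65). Within clusters the log2 ratio was 0.24 (-0.24 to 0.75) in the fibroblast-like cluster 1 and 0.50 (-1.09 to 2.80) in cluster 14, and cluster 0 had 1.67 (0.57 to 2.67) on 12 and 31 UMIs. Cluster 1, where *Alox5ap* was at 69.7 CPM, held 1093 treated and 128 untreated cells. Macrophage markers in this class summed to 48.0, 171 and 297 CPM (242, 989 and 1223 in empty droplets) and neutrophil markers to 1.70, 42.7 and 221 CPM (228, 1386 and 1618). With no doublets removed the log2 ratio was 0.72, and after subtraction of free RNA no ratio could be formed. The part of these in the ratio was not tested.

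*Ptgs2*, the inducible cyclooxygenase, had the largest ratio of the counted members in mesangial- and mural-like cells, both between treated and untreated and between MRL/lpr and control mice. They held 715 *Ptgs2* UMIs in control, 3804 in MRL/lpr and 936 in treated mice. The levels were 50.5 CPM (46.9 to 54.4), 337 CPM (326 to 348) and 65.6 CPM (61.5 to 70.0). Untreated MRL/lpr cells stood far above both other libraries, 6.66-fold above control (6.15 to 7.23) and 5.13-fold above treated cells. The log2 ratio of treated over untreated cells was -2.36 (-2.46 to -2.26). Cells with 5 or more UMIs made up 13.3% of the class in MRL/lpr, 3.11% in control and 1.60% in treated mice, and the highest cell had 52 UMIs.

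The high level in untreated mice was present in each cluster of the class. In cluster 0, led by *Rgs5* and *Tagln*, *Ptgs2* had 32.0 CPM in control, 248 in MRL/lpr and 57.7 in treated mice. The mesangial-like cluster 14 had 7.73 (5 UMIs), 175 and 66.9 CPM. Cluster 1 had 309.8 CPM in MRL/lpr and 61.4 in treated cells, and cluster 2, mesangial-like, had 59.2 CPM in control and 431 in MRL/lpr cells. The log2 ratio of treated over untreated cells was -2.11 (-2.64 to -1.62) in cluster 0, -2.33 (-2.61 to -2.06) in cluster 1 and -1.39 (-1.76 to -0.99) in cluster 14. The share of the class with a UMI was 25.1%, 46.6% and 19.2%, and 2.83%, 20.3% and 5.21% at 1000 UMIs per cell. Podocyte-like cells had 0.296%, 2.68% and 1.36% before thinning. The median depth of the class was 7881, 3825 and 3183 UMIs.

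**Figure D4:**
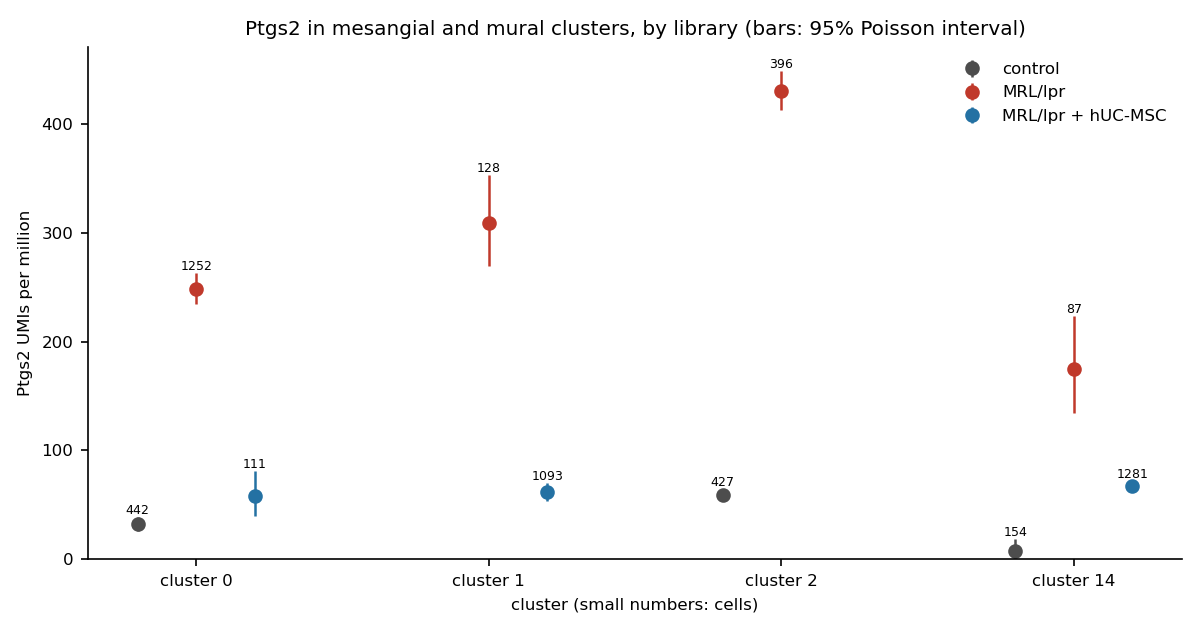
*Ptgs2* level (CPM, from 0) in each mesangial- and mural-like cluster, by library, with 95% Poisson intervals and the number of cells above each point (cells of a library under 50 in a cluster are not shown). The MRL/lpr points lay at 175 to 431 CPM and the treated points at 57.7 to 66.9 CPM.

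Genes that respond to digestion of the tissue and to inflammation also differed between libraries in these cells. In mesangial- and mural-like cells the 10 genes of the dissociation stress list summed to 37686 CPM in control, 25180 in MRL/lpr and 9730 in treated mice. Between treated and untreated cells 8 of the 10 were past 2-fold lower and 1 past 2-fold higher, where 5.09% and 5.42% of all genes were lower and higher, with a median log2 ratio of -1.71 against 0.12 over all genes. Between MRL/lpr and control cells 2 were lower and 1 higher, against 5.28% and 13%. The NF-kB and cytokine list summed to 5535, 8561 and 2014 CPM, with 6 of 10 past 2-fold lower in treated than in untreated cells, against 5.09% of all genes, and 6 past 2-fold higher in MRL/lpr than in control cells, against 13%. The stress list was thus highest in control cells, where *Ptgs2* was lowest, and both lists were lowest in treated cells. The part of tissue handling in the level of *Ptgs2* was not tested. The genes most like *Ptgs2* over the 23 sums were *Thbs1*, *Inhba*, *Cxcl2*, *Sgms2* and *Ptgs2os*, with r from 0.91 to 0.89. *Cxcl2*, a chemokine for neutrophils, had 258, 1081 and 129 CPM in the mesangial- and mural-like cells of control, MRL/lpr and treated mice. *Ptgs2os* had 1.27, 6.38 and 2.52 CPM there, also highest in MRL/lpr mice. The others did not share the fall in treated mice. *Thbs1* had 78.4, 270 and 473 CPM, *Inhba* 6.36, 9.65 and 9.61 CPM and *Sgms2* 27.6, 26.7 and 24.4 CPM.

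*Ptgs2* was also a myeloid gene. Neutrophil-like cells had 239 CPM in MRL/lpr and 247 in treated mice, with 525 CPM in the 25 control cells. Phagocyte-like cells had 104 (56 UMIs in 117 cells), 44.6 and 29.6 CPM, below empty droplets in MRL/lpr and treated mice. The monocyte-like clusters 11 and 12 had 55.6 and 76.7 CPM in untreated and 36.4 and 42.2 CPM in treated mice. The macrophage-like cluster 13 had 10.3 and 5.96 CPM. The class was highest in control mice, where the level in mesangial- and mural-like cells was lowest, and 88 of its control cells were in cluster 11. Tubule-like cells had 8.29, 55.8 and 36.1 CPM, and empty droplets 25.6, 50.7 and 32.3 CPM. The thick limb and distal cluster 16 held 417 of the 463 untreated UMIs of this class and stood above the droplets, with 121 CPM in untreated and 60.2 CPM in treated mice (log2 ratio -1.01, -1.39 to -0.64). The proximal cluster 17 had the opposite direction, with 11.1 CPM (42 UMIs) in untreated and 22.6 CPM (16 UMIs) in treated mice (1.03, 0.10 to 1.89). Endothelial-like cells had 1.41, 7.24 and 4.23 CPM, and podocyte-like cells 0.427, 3.76 and 1.78 CPM, all below the droplets' level.

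*Ptgs1*, the constitutive cyclooxygenase, was found in endothelial-, mesangial- and tubule-like cells. Endothelial-like cells had 85.4 CPM in control, 55.8 in MRL/lpr and 75.4 in treated mice. MRL/lpr cells were 1.53-fold below control, and treated cells were 1.35-fold above untreated ones (1.25 to 1.46). Under a limit of 5% ribosomal UMIs, which left 73 control and 50 MRL/lpr cells, the log2 ratio of MRL/lpr over control cells turned from -0.61 to 0.58. The MRL/lpr library was thus the lowest of the 3 for *Ptgs1* and the middle for *Ltc4s*. The log2 ratio of treated over untreated cells was 0.26 (0.05 to 0.47) in cluster 7, 0.39 (0.03 to 0.77) in cluster 9, 0.19 (-0.26 to 0.61) in cluster 18 and -0.11 (-0.88 to 0.69) in cluster 5. Mesangial- and mural-like cells had 44.1, 36.0 and 38.6 CPM. Empty droplets had 34.3, 22.9 and 31.1 CPM.

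The sharpest difference in *Ptgs1* was in macrophages. Phagocyte-like cells had 5.56 CPM (3 UMIs) in control, 22.0 in MRL/lpr and 5.82 in treated mice, 3.78-fold lower in treated than in untreated cells (log2 ratio -1.92, -2.30 to -1.55). Of the 238 untreated UMIs 219 came from the macrophage-like cluster 13, with 57.6 CPM in 566 untreated and 10.4 CPM in 686 treated cells. The monocyte-like cluster 11 had 2.22 and 3.14 CPM, and cluster 12 had 3.60 and 4.8 CPM. With no doublets removed the log2 ratio of the class was -0.96.

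*Ptgis*, the prostacyclin synthase, makes the prostanoid that widens vessels and holds back platelets. Endothelial-like cells had 229 UMIs in control, 281 in MRL/lpr and 605 in treated mice, or 7.85 CPM (6.86 to 8.93), 14.1 CPM (12.5 to 15.9) and 30.5 CPM (28.1 to 33.0). For the class the libraries stood in the order of *Ltc4s*, and treated cells were 2.16-fold above untreated ones (1.87 to 2.49). Relative to the median gene the log2 ratio was 0.98, just under 2-fold, against 1.11 as measured. Within clusters it was 0.79 (0.42 to 1.16) in cluster 7, 1.15 (0.43 to 1.97) in cluster 9 and 0.46 (-0.42 to 1.23) in cluster 18. Between MRL/lpr and control cells the class had 0.85 (0.59 to 1.11), while every interval within a cluster included 0. The cluster values were 0.85 (-1.06 to 2.27) in cluster 5, 0.70 (-0.47 to 1.67) in cluster 6, 0.06 (-1.02 to 1.41) in cluster 7, -0.22 (-1.48 to 1.14) in cluster 9 and 0.58 (-0.59 to 2.05) in cluster 18. Each rested on 4 to 9 UMIs in 1 of the libraries, so a difference of the class's size could be neither seen nor excluded at this depth. In *Ehd3* cells the levels were 8.02, 13.7 and 30.8 CPM. The control level was below the 15.9 CPM of empty droplets, and the others were above their 5.55 and 10.6 CPM. Mesangial- and mural-like cells had 1.91, 2.21 and 3.30 CPM.

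*Tbxas1*, the thromboxane synthase, was shared by endothelial cells, macrophages and proximal tubule cells. Endothelial-like cells had 23.6 CPM in both control and MRL/lpr and 35.8 CPM in treated mice, 1.52-fold above untreated ones (1.35 to 1.71). Within clusters 5, 7, 9 and 18 the log2 ratios were 0.51 (-0.71 to 1.89), 0.12 (-0.26 to 0.50), 0.47 (-0.03 to 1.03) and -0.27 (-1.04 to 0.42), and each interval included 0. Phagocyte-like cells had 18.5 (10 UMIs), 60.3 and 43.0 CPM. The macrophage-like cluster 13 was highest, with 143 CPM in untreated and 88 CPM in treated mice (log2 ratio -0.70, -0.90 to -0.51), the same direction as *Ptgs1*. The proximal tubule-like cluster 17 had 13.2 (7 UMIs), 61.4 and 48.0 CPM. Mesangial- and mural-like cells had 6.15, 11.8 and 21.5 CPM, and empty droplets 14.1, 26.7 and 29.5 CPM.

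*Ptges*, the inducible prostaglandin E synthase, was mainly a collecting duct gene in control and MRL/lpr mice. Tubule-like cells had 360 UMIs in control, 255 in MRL/lpr and 133 in treated mice, or 166, 30.7 and 54.5 CPM. The make-up of the class also differed. Collecting duct-like cluster 21 gave 96 of the 179 control cells, 106 of 1841 MRL/lpr cells and 42 of 437 treated cells, and the collecting duct markers summed to 14301, 2756 and 4591 CPM. Within cluster 21 *Ptges* had 248 CPM in control and 193 in MRL/lpr mice (log2 ratio -0.36, -0.62 to -0.11), against -2.43 for the class. In the thick limb and distal cluster 16 it had 13.1 CPM in untreated and 33.1 in treated mice (1.34, 0.68 to 1.99). Phagocyte-like cells held 2.27%, 15.9% and 39.3% of its UMIs in control, MRL/lpr and treated mice. Their levels were 16.7 (9 UMIs), 5.08 and 8.84 CPM, against 14.6, 4.86 and 7.04 CPM in empty droplets. Treated phagocyte-like cells were 1.74-fold above untreated ones (1.26 to 2.43). Neutrophil-like cells had 7.59 CPM (7 UMIs) in MRL/lpr and 35.9 CPM (20 UMIs) in treated mice. Endothelial-like cells had at most 0.756 CPM.

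*Ptgs1* went with *Ptges* in the collecting duct. Cluster 21 had 139 CPM of *Ptgs1* in control and 112 in MRL/lpr mice, cluster 16 had 27.9 and 41.6 CPM in untreated and treated mice, and proximal cluster 17 had 7.52, 5.80 and 8.47 CPM.

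*Ptgds*, the lipocalin-type prostaglandin D synthase, was sparse. Podocyte-like cells had 9.88 CPM (162 UMIs) in control, 1.14 CPM (7 UMIs) in MRL/lpr and 2.67 CPM (3 UMIs) in treated mice. Of these cells 2249 of 2362 control ones were in cluster 3 and 731 of 821 MRL/lpr ones in cluster 4. Within cluster 4 *Ptgds* had 37.0 CPM (21 UMIs) in control and 1.27 CPM (7 UMIs) in MRL/lpr mice. Within cluster 3 it had 8.91 CPM in control and 0 UMIs in 90 MRL/lpr cells. Tubule-like cells had 8.76 CPM (19 UMIs), 19.9 CPM (165 UMIs) and 12.7 CPM (31 UMIs), led in both MRL/lpr libraries by the proximal cluster 17 with 29.0 and 24 CPM. Podocytes held 87.6% of the gene's UMIs in control mice, and tubule-like cells 88.2% and 67.4% in untreated and treated mice. Empty droplets had 3.0, 6.25 and 3.52 CPM.

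*Ptger4* encodes EP4, a receptor for prostaglandin E2 that raises cyclic AMP. Mesangial- and mural-like cells had 1766 UMIs in control, 1322 in MRL/lpr and 778 in treated mice, or 125, 117 and 54.6 CPM. As a class MRL/lpr cells had a log2 ratio of -0.09 over control (-0.20 to 0.01), but the clusters differed, with -0.37 (-0.57 to -0.17) in cluster 0, 0.14 (0.01 to 0.27) in cluster 2 and -0.32 (-0.93 to 0.26) in cluster 14. Treated cells were 2.15-fold below untreated ones (log2 ratio -1.10, -1.23 to -0.97). The log2 ratio of treated over untreated cells was -1.10 (-1.72 to -0.54) in cluster 0, -0.90 (-1.31 to -0.47) in cluster 1 and -0.85 (-1.34 to -0.32) in cluster 14, and each interval lay below 0. Both *Ptger4* and *Ptgs2* were lower in treated than in untreated cells of this class, but as a class MRL/lpr cells stood above control for *Ptgs2* and not for *Ptger4*. The log2 ratio of *Ptger4* was -0.97 with no doublets removed and -0.80 under a limit of 5% ribosomal UMIs, both under 2-fold.

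Some monocyte-like cells carried the receptor too. Phagocyte-like cells had 64.9 (35 UMIs), 87.3 and 75.5 CPM, highest in the monocyte-like cluster 11 with 89.9, 142 and 138 CPM. The monocyte-like cluster 12 had 40.4 CPM (32.9 to 49.0) in untreated and 50.7 CPM (44.6 to 57.5) in treated mice. In the macrophage-like cluster 13 *Ptger4* had 52.8 CPM in untreated and 26.1 CPM in treated cells (log2 ratio -1.02, -1.37 to -0.67). Podocyte-like cells had 45.2, 39.5 and 33.9 CPM, and empty droplets had 34.3, 36.1 and 36.5 CPM. T and NK-like cells had 59.6, 42.3 and 31.6 CPM, of which cluster 24, led by NK genes, had 129, 105 and 65.1 CPM (23, 36 and 13 UMIs), above the droplets in control and MRL/lpr mice, and the T cell-led cluster 23 had 30.9, 37.4 and 30.6 CPM. Endothelial-like cells had 5.14, 5.84 and 5.49 CPM, and no pair of these differed beyond counting error.

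Counting how many genes were past 2-fold puts the 10 beside all genes with at least 20 UMIs in a class over both libraries. In endothelial-like cells 8 of the 10 were counted. Between treated and untreated mice 1 was past 2-fold higher, *Ptgis*, and 0 were lower, where 6.42% and 4.3% of 14900 genes were. Between MRL/lpr and control mice 2 were higher, *Ptgs2* and *Ltc4s*, and 0 lower, against 10.6% and 6.1% of 14930 genes. *Ptgs2*, at 1.41 and 7.24 CPM in control and MRL/lpr cells, was below the 25.6 and 50.7 CPM of empty droplets. Its log2 ratio was 1.34 (-0.62 to 2.83) in cluster 6 and 1.21 (-0.69 to 4.28) in cluster 7. In cluster 18 it had 0 control UMIs and an interval that reached just below 0. The ratio of *Ltc4s* lay at the limit itself and ranged from 0.95 to 2.22 on the log2 scale under other settings. The median log2 ratio of the 8 was 0.22 and 0.52, against 0.13 and 0.03 over all genes.

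In mesangial- and mural-like cells 7 of the 10 were counted. Between treated and untreated mice 1 was past 2-fold higher, *Alox5ap*, and 2 lower, *Ptgs2* and *Ptger4*, against 5.42% and 5.09% of 14329 genes. Between MRL/lpr and control mice 3 were higher, *Ptgs2*, *Alox5ap* and *Ltc4s*, and 0 lower, against 13% and 5.28% of 13947 genes. *Ltc4s* there went from 4.52 to 16.7 CPM, below its level in empty droplets. Its ratio of treated over untreated cells, 0.48 on the log2 scale, turned to -0.33 after free RNA was subtracted.

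In phagocyte-like cells 8 were counted. Between treated and untreated mice 0 were past 2-fold higher and 1 lower, *Ptgs1*, against 2.79% and 5.57% of 13597 genes. Between MRL/lpr and the 117 control cells 3 were higher, *Ptgs1*, *Tbxas1* and *Ltc4s*, and 3 lower, *Ptgs2*, *Ptges* and *Alox5*, against 21.8% and 8.49% of 11949 genes. Of these *Ltc4s* rested on 1 control UMI (log2 ratio 2.81, 0.31 to 8.13), *Alox5* on 2 (-1.16, -3.22 to 1.99) and *Ptgs1* on 3 (1.98, 0.42 to 4.27). The phagocyte-like cells of the libraries also sat in different clusters. Of the 117 control cells 88 were in the monocyte-like cluster 11 and 4 in the macrophage-like cluster 13, which held 566 of the 2155 MRL/lpr cells. Cluster 13 gave 219 of the 238 *Ptgs1* UMIs and 544 of the 652 *Tbxas1* UMIs of MRL/lpr mice. Within cluster 11 the log2 ratio of *Tbxas1* was 1.41 (-1.16 to 6.76, on 1 control UMI). There *Ptges* had -1.71 (-2.86 to -0.39, on 8 control UMIs), *Ptgs2* -0.79 (-1.32 to -0.21) and *Alox5ap* -0.77 (-0.93 to -0.60).

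In tubule-like cells 9 were counted. Between treated and untreated mice 0 were past 2-fold in either direction, against 4.51% higher and 5.48% lower of 13934 genes. Between MRL/lpr and control mice 5 were higher, *Ptgs2*, *Ptgis*, *Ptgds*, *Tbxas1* and *Alox5ap*, and 2 lower, *Ptgs1* and *Ptges*, against 21.6% and 6.34% of 13728 genes. The 2 lower genes were highest in the collecting duct-like cluster, whose cells were a smaller part of the MRL/lpr class. Free RNA made up an estimated 2.75% of this class in control, 36.4% in MRL/lpr and 33.3% in treated mice, and *Ptgis* rested on 1 control UMI (log2 ratio 3.07, 0.48 to 8.41). The median gene was 0.15 higher in MRL/lpr than in control tubule-like cells, and 0.12 higher in treated than in untreated mesangial- and mural-like cells.

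**Figure D5:**
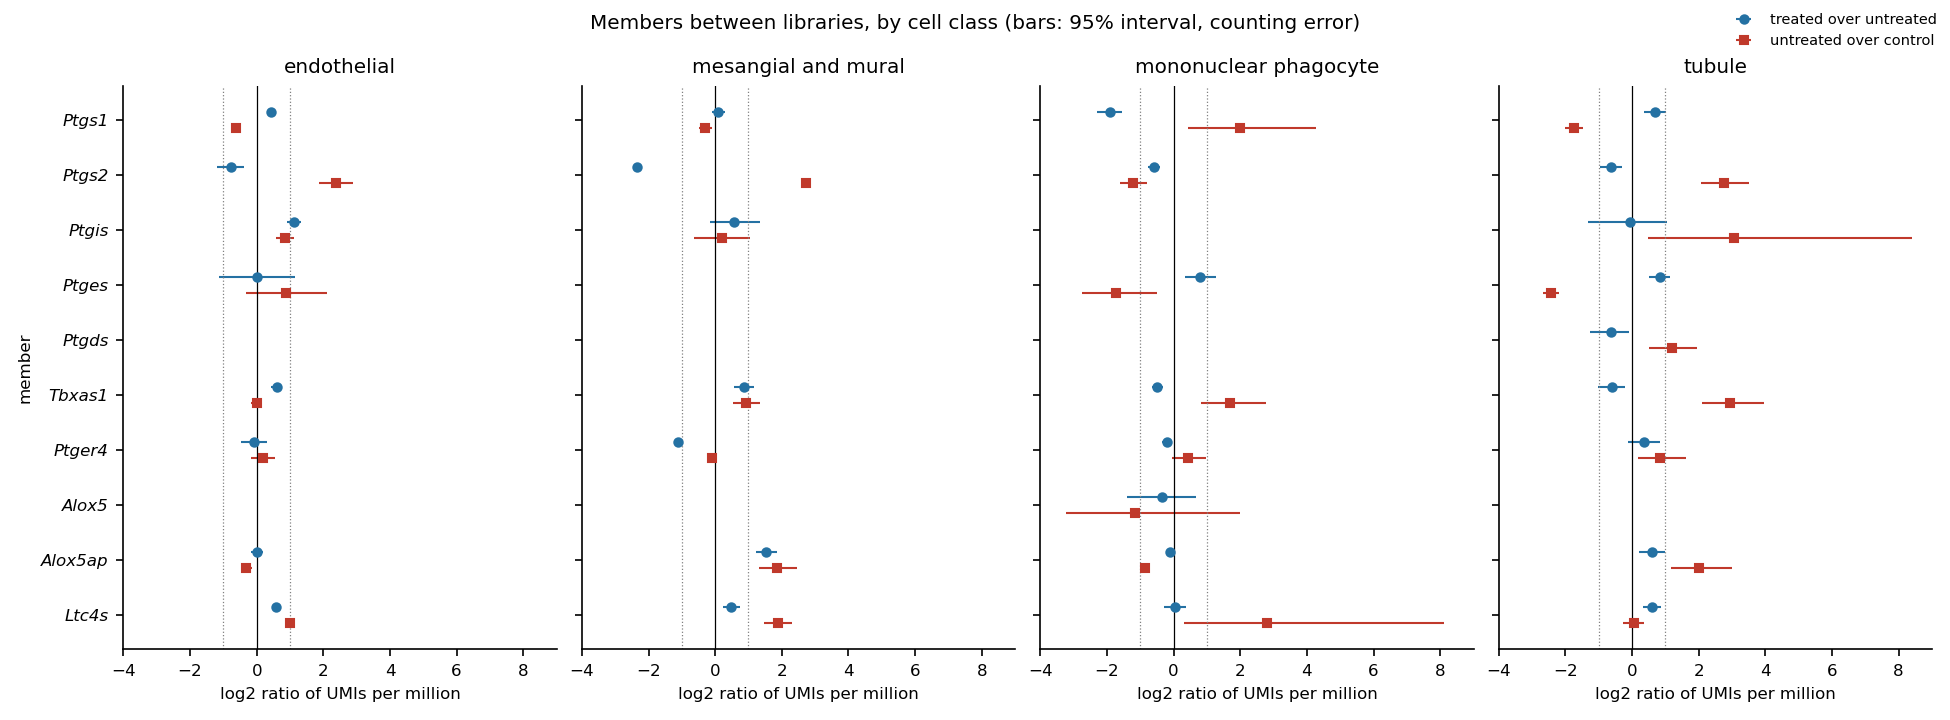
Log2 ratio of the level of each gene between libraries (horizontal axis), treated over untreated MRL/lpr (blue circles) and untreated MRL/lpr over control (red squares), in 4 cell classes, with exact 95% intervals for counting error and dotted lines at 2-fold. A gene with under 20 UMIs over both libraries has no point. *Ptgs2* in mesangial- and mural-like cells lay at -2.36 and 2.74.

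The other genes of the pathway, 40 in all, give the setting of these 10. Upstream of both branches *Pla2g4a*, the cytosolic phospholipase A2, was highest in mesangial- and mural-like cells with 212 CPM in control, 267 in MRL/lpr and 285 in treated mice, so the gene that releases the substrate did not share the pattern of *Ptgs2*. *Hpgds*, the haematopoietic prostaglandin D synthase, was highest in phagocyte-like cells with 38.9, 94.9 and 136 CPM, where *Ptgds* gave almost nothing. *Hpgd*, which breaks prostaglandins down, had 22.3 (12 UMIs), 145 and 16.7 CPM in phagocyte-like cells. It was highest in untreated MRL/lpr mice, like *Ptgs1* and *Tbxas1* in the same class. The macrophage-like cluster 13, which gave most UMIs of those 2 genes in MRL/lpr mice, held 4 of 117, 566 of 2155 and 686 of 3729 cells. *Hpgd* was not read within clusters, and the part of this make-up was not tested.

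Receptors were found in both vessel and mesangial cells. *Tbxa2r*, the thromboxane receptor, had 127, 79.7 and 86.1 CPM in endothelial-like cells, and *Ptgir*, the prostacyclin receptor, 13.8, 31.2 and 25.9 CPM in mesangial- and mural-like cells. *Ptger2*, the other receptor for prostaglandin E2 that raises cyclic AMP, had 18.7, 1.95 and 1.19 CPM there. It was low in both MRL/lpr libraries, unlike *Ptger4*. *Slco2a1*, which carries prostaglandins into cells, had 203, 295 and 293 CPM in endothelial-like and 206, 117 and 71.2 CPM in mesangial- and mural-like cells.

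Downstream of *Ltc4s*, *Abcc1*, which exports leukotriene C4, had 5.76, 18.7 and 20.2 CPM in endothelial-like cells. *Ggt5*, which trims it to leukotriene D4, was highest in podocyte-like cells with 110.1, 87.3 and 94.4 CPM. *Cysltr2*, a receptor for cysteinyl leukotrienes, had 8.84, 10.6 and 13 CPM in endothelial-like cells, and *Cysltr1* had 26.0 (14 UMIs), 6.19 and 5.68 CPM in phagocyte-like cells. *Lta4h*, which makes leukotriene B4 from the same precursor as *Ltc4s*, had 21.2, 21.2 and 29.5 CPM in endothelial-like cells.

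Of the 40 genes 27 were counted in endothelial-like cells between treated and untreated mice. There 1 was past 2-fold higher and 4 lower, with a median log2 ratio of 0.05, where 6.42% and 4.3% of all genes were higher and lower. Of 29 counted between MRL/lpr and control mice 8 were higher and 1 lower, with a median of 0.26, against 10.6% and 6.1%. Among the 8 were *Abcc1*, with 18.7 CPM in MRL/lpr cells, and genes of low level. The latter were *Pla2g5*, *Hpgds*, *Ptger1*, *Hpgd*, *Alox8*, *Ggt1* and *Dpep1*, each with at most 5.43 CPM there. *Hpgd*, *Alox8*, *Ggt1* and *Dpep1* were also the 4 lower in treated than in untreated cells. In mesangial- and mural-like cells 3 of 28 were higher and 2 lower between treated and untreated mice, against 5.42% and 5.09%. There 11 of 27 were higher and 1 lower between MRL/lpr and control mice, against 13% and 5.28%. In phagocyte-like cells 0 of 29 were higher and 5 lower between treated and untreated mice, against 2.79% and 5.57%, and 12 of 27 were higher and 3 lower between MRL/lpr and control mice, against 21.8% and 8.49%. Of those 12 genes, *Pla2g6*, *Ptger2*, *Tbxa2r*, *Ptgr1*, *Alox8*, *Dpep1* and *Cysltr2* had 0 control UMIs, and for each of them except *Ptgr1* the interval of the log2 ratio reached below 0. In tubule-like cells 1 of 29 was higher and 2 lower between treated and untreated mice, against 4.51% and 5.48%, and 10 of 29 were higher and 4 lower between MRL/lpr and control mice, against 21.6% and 6.34%. These counts stand beside shares over all genes and were not tested against them.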

How the data were processed

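Single-cell RNA sequencing of isolated glomeruli gave 3 libraries, grouped by their labels. The authors deposited UMI counts per gene and barcode before cell calling. They were made with Cell Ranger, whose version is 1.1.0 in the methods and 4 in the file header; the submitters' processing notes name STAR and mm10. The counts were used as deposited, with totals of 94903163 (control), 103319588 (MRL/lpr) and 90812138 (treated) UMIs. Of 32285 gene IDs 32158 were found in GENCODE M21 (GRCm38). The genes and all lists were chosen with earlier results of these data known.

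Barcodes with at least 1000 UMIs and at most 10% mitochondrial UMIs were kept, and the top 0.8% per 1000 barcodes by Scrublet score were removed as doublets (971, 1593 and 2201). With the study's own limits on genes (200 to 3000) and on mitochondrial UMIs (10%) there would remain 8404, 12062 and 14815 of the kept barcodes before doublet removal, and their 5% limit on ribosomal UMIs 499, 886 and 536, so the latter served only as an alternative. Cells of all libraries were scaled to 10000 UMIs, logged and clustered together on 2000 variable genes without the members and pathway genes (7 left out), with 10 principal components, 15 neighbours and Leiden resolution 1 (25 clusters, seed 0). Clusters were named from marker lists. Mesangial, smooth muscle and fibroblast clusters were joined to 1 class, and tubule clusters to another, after the clusters had been seen. Cells in unnamed clusters (42, 541 and 1681) entered no class.

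UMIs were summed per class and library. Levels carry exact Poisson intervals, ratios exact conditional binomial intervals and shares of cells exact binomial intervals, all at 95%. With 1 library per group no test was made. A ratio needed 20 UMIs over both libraries, and past 2-fold is a rule of size. Named genes are the members, pathway genes and markers, the 5 genes most correlated with *Ltc4s* and with *Ptgs2* in log2 levels over sums, and the 10 highest in treated endothelial-like cells with an *Ltc4s* UMI among genes with at least 50 UMIs. The ratios and their intervals were tried on simulated sums with known folds and Poisson error, which is the error the intervals assume. Clustering, naming of classes, doublet removal, thinning, free RNA and differences between mice were not simulated. Tools were scanpy 1.11.5 with igraph 0.11.9 and scikit-learn 1.9.0, scipy 1.17.1 with numpy 2.4.6 and pandas 2.3.3, matplotlib 3.10.9 and anndata 0.12.19, in Python 3.11.15. Alternatives changed the limits on cells, doublets, resolution, free RNA and scaling.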

Additional observations from a re-analysis of the deposited data

Results flagged for a closer look

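For 3 genes the ratio between MRL/lpr and control cells had opposite directions in phagocyte-like and tubule-like cells, and these differences between classes were not tested. *Ptgs1* was higher in phagocyte-like (log2 ratio 1.98, on 3 control UMIs) and lower in tubule-like cells (-1.75), a difference of 3.73. Within tubule-like clusters it was -0.32 (-0.66 to 0.02) in cluster 21 and -0.38 (-1.93 to 1.62) in cluster 17, and both intervals included 0. Of the 238 phagocyte-like UMIs in MRL/lpr mice 219 were in cluster 13, which held 4 control cells. *Ptgs2* was higher in tubule-like (2.75) and lower in phagocyte-like cells (-1.22), a difference of 3.97. The tubule-like cells sat in different clusters, with 1225 of 1841 MRL/lpr cells and 29 of 179 control cells in cluster 16, which gave 417 of the 463 MRL/lpr UMIs. The 18 control UMIs lay in 2 cells. *Alox5ap* was higher in tubule-like (2.01) and lower in phagocyte-like cells (-0.87), a difference of 2.88. Its tubule-like levels, 5.53 CPM in control and 22.3 CPM in MRL/lpr mice, were below the 19.7 and 93.0 CPM of empty droplets, and within cluster 17 the log2 ratio was 1.22 (-0.41 to 3.55). Free RNA was estimated at 2.75% of the control and 36.4% of the MRL/lpr tubule-like class, and its part in these differences was not tested.

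Between treated and untreated MRL/lpr mice *Ptgs1* was higher in tubule-like (0.69) and lower in phagocyte-like cells (-1.92), a difference of 2.60. *Tbxas1* was higher in mesangial- and mural-like (0.87) and lower in tubule-like cells (-0.60), a difference of 1.47. Neither difference was tested. For *Tbxas1* each interval within a cluster included 0: the log2 ratios were 0.06 (-1.21 to 1.13), 0.84 (-0.02 to 1.84) and 0.20 (-0.95 to 1.66) in clusters 0, 1 and 14 of mesangial- and mural-like cells, and -0.20 (-0.89 to 0.45) and -0.36 (-0.92 to 0.17) in clusters 16 and 17 of tubule-like cells. Its mesangial- and mural-like levels, 11.8 CPM untreated and 21.5 CPM treated, were below the 26.7 and 29.5 CPM of empty droplets.

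Cells of the unnamed clusters entered no comparison. They held *Alox5ap* at 181 CPM in MRL/lpr mice (197 UMIs) and 321 CPM in treated mice (1036 UMIs), above the 93.0 and 109 CPM of empty droplets. *Tbxas1* had 49.6 CPM there in treated mice (160 UMIs), above 29.5 CPM in empty droplets. Free RNA was estimated to make up 91.2% of these treated cells.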

How the results depend on the processing

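With 10 alternatives in cell limits, doublets, resolution, free RNA and scaling, the endothelial *Ltc4s* ratio of treated over untreated mice (log2 0.59) became 0.46 relative to the median gene and lay between 0.55 and 0.64 otherwise. The endothelial-like share of treated *Ltc4s* UMIs (84.0%) was 83.0% at resolution 2.0, 69.9% with no doublets removed, 74.4% with a lower UMI limit, 86.5% from 2000 UMIs, 72.4% under the 5% ribosomal limit, 93.6% after subtraction of free RNA and 78.6% as a mean over cells. The 1 member past 2-fold higher there, *Ptgis*, became 0 under the ribosomal limit, where its ratio could not be formed, and relative to the median gene. The ribosomal limit left 73, 50 and 82 endothelial-like cells, and 7 of the 64 member ratios over 4 classes and both comparisons were then past 2-fold, against 23 as reported and 19 to 25 under the other settings. All of the 23 kept their sign under every alternative that gave a value, and 11 stayed past 2-fold in each alternative that gave them a value. Not all of these 11 had a value under the ribosomal limit, where only 7 ratios were past 2-fold. No paired analysis was possible because each group has 1 library. The depth of 2726 to 4910 UMIs per cell limits *Alox5*, *Ptgds* and control phagocyte-like cells, and the spread between mice is unknown.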
